A study of Mus musculus with 3 samples.

Results

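The genes described here are those of the platelet-derived growth factor (PDGF) system in young mouse bone, namely the receptor genes *Pdgfra* and *Pdgfrb*, the ligand genes *Pdgfa*, *Pdgfb*, *Pdgfc* and *Pdgfd*, and *H2B_GFP*, the fluorescent histone fusion carried by Pdgfra-H2B-GFP mice as a reporter of *Pdgfra*. They were taken by symbol from the feature list of the count matrices, where each symbol named a single row, so that 7 of 55422 features were followed. The question was which cells around the growth plate held transcripts of the ligands, which held those of the receptors, and how the reporter transcript was distributed beside *Pdgfra*. The series comprised 3 droplet single-cell libraries, all from untreated male mice of the C57BL/6 background at postnatal week 3. In 2 libraries, called metaphyseal replicates 1 and 2, wild-type C57BL/6J metaphyses had been dissected and dissociated, and blood lineages, CD45+ cells and CD117+ cells had been depleted. The remaining library, called the Pdgfra-GFP+ library, held live GFP+ cells sorted from femur and tibia of Pdgfra-H2B-GFP mice, which carry the reporter knocked in to 1 *Pdgfra* allele. How many animals entered each library is not given in the sources used here, so the spread between libraries may be technical, and the single reporter library differs from the others in genotype, sorting and dissected region together.

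PDGF ligands are secreted dimers that pair and activate receptor tyrosine kinases. PDGF-A, -B and -C act on PDGF receptor α, PDGF-B and -D on receptor β, and the C and D chains carry a CUB domain that proteases must remove before they can bind. In vessels, endothelial PDGF-B recruits mural cells, the pericytes and smooth muscle cells that carry receptor β, whereas receptor α marks mesenchymal cells of many tissues, those of the bone marrow among them.

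Cells were assigned to populations by marker genes that did not include any member of the system, and "-like" after a name means that it rests on these markers alone. SC-like cells carried septoclast markers such as *Sstr2* and *Otos*, septoclasts being the perivascular cells that resorb cartilage at the growth plate. The mpMSC-like (*Postn*, *Aspn*) and dpMSC-like (*Lepr*, *Cxcl12*) cells are named after the study's metaphyseal and diaphyseal mesenchymal stromal cells. These names give no position in the bone, since the dissected metaphyses gave 740 and 683 dpMSC-like cells. OB-like and late OB-like cells are taken as earlier and later stages of osteoblasts. The late OB-like gate asked for at least 2 of 5 markers such as *Dmp1* and *Mepe*. Of its 139 cells 115 held just that minimum, so these stages are weakly separated. The mpMSC-like gate asked for at least 3 of 6 markers, and 589 of its 1062 cells held just that minimum. For SC-like cells it was 3 of 5 markers, with 89 of 194 cells at the minimum. The mpMSC-like cells, to which most populations are compared below, are therefore loosely defined too. In all, 20 populations had at least 10 cells in a library, of which 15 had them in at least 2 libraries, which gave 105 testable pairs. SC-like cells numbered 10, 11 and 173, mpMSC-like cells 53, 46 and 963, and mural-like cells 16, 17 and 66 (first both metaphyseal libraries, then the sorted one), so the metaphyseal values of these populations rest on few cells. Library totals lay between 22082735 and 91747759 UMIs (unique molecular identifiers, each counting a captured transcript), with medians of 5354 to 6458 UMIs per cell. The labels name the metaphyseal libraries for mesenchymal stromal cells, but only blood cells were depleted from them, and endothelial-like (EC-like) cells made up 46.4% and 43.5% of their cells, against 2.73% in the Pdgfra-GFP+ library. Levels are given below as CPM, the UMIs of a gene in a population scaled to 1000000 UMIs of that population, always in the order metaphyseal replicate 1, metaphyseal replicate 2, Pdgfra-GFP+ library, and means are ± SD over these 3 libraries. Differences are log2 fold changes of edgeR's quasi-likelihood test on the summed UMIs of each library and population, with Benjamini-Hochberg adjustment over 12744 genes, and 6 of the 7 members entered that fit, all but *H2B_GFP*.

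*Pdgfra* (ENSMUSG00000029231.15), the gene for receptor α and the locus that carries the reporter, lies on the plus strand of chromosome 5 (GRCm38, chr5:75152292-75198215). The 250 bases ahead of its RefSeq start (GRCm38.p6, chr5:75152001-75152250, plus strand) are shown because the reporter was inserted at this locus. In this and the promoter sequences below, capitals mark the letters of a TATA box (TATAAA, or TTTATA on the other strand) or a GC box (GGGCGG, or CCGCCC on the other strand). They are marked wherever they lie in the window, and these letter runs cannot overlap each other. Of 32851 mouse promoter windows of this length, 12.4% held the first and 32.7% the second.
Pdgfra: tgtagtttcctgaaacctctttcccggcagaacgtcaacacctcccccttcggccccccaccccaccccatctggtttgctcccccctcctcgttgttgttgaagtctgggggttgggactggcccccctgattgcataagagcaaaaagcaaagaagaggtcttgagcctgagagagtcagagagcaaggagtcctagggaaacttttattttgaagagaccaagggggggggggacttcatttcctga
The window held neither motif and 4 CG dinucleotides, where the median window held 6.

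*Pdgfra* transcripts were highest in dpMSC-like cells and were spread over stroma and osteoblasts, whereas chondrocytes and endothelium held few or none. dpMSC-like cells had 232, 256 and 101 CPM (196 ± 83.3). Late OB-like cells had 98.7, 140 and 43.5 CPM (94.0 ± 48.2), OB-like cells 91.7, 96.1 and 51.0 (79.6 ± 24.9) and mpMSC-like cells 83.0, 85.4 and 36.1 (68.1 ± 27.8). Within every library dpMSC-like cells were the highest of these 4 populations, but the other 3 overlapped across libraries, and each was lowest in the Pdgfra-GFP+ library. Against mpMSC-like cells, *Pdgfra* was higher in dpMSC-like cells by 1.51 (SE 0.28, edgeR adjusted p = 5.55e-05), in 3 of 3 libraries. DESeq2's Wald test gave a similar size, 1.46, with an adjusted p of 0.323. Of the 6 members tested, 2 were higher and 1 lower in dpMSC-like than in mpMSC-like cells, where 28.5% of all genes were called, 15.3% higher and 13.2% lower.

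Between OB-like and mpMSC-like cells, *Pdgfra* differed by 1.02 (SE 0.29, edgeR adjusted p = 0.0049) on the TMM scale, OB-like cells being higher in 3 of 3 libraries. This scale matters for osteoblasts, in which 20 genes held 34.5% of all UMIs against 15.6% in mpMSC-like cells. TMM moved OB-like cells up by 0.69 and late OB-like cells up by 0.63 on the log2 scale relative to mpMSC-like cells, and on library totals alone the difference was 0.30 (edgeR adjusted p = 0.379). The call was also lost without metaphyseal replicate 2 (1.13, edgeR adjusted p = 0.0558). Against OB-like cells, dpMSC-like cells differed in *Pdgfra* by 0.49 (SE 0.25, edgeR adjusted p = 0.0942) with TMM. Without it the value was 1.25 (edgeR adjusted p = 4.71e-05), and without the Pdgfra-GFP+ library 0.67 (edgeR adjusted p = 3.15e-05). Late OB-like and OB-like cells were not told apart in *Pdgfra* (0.07, SE 0.30, 95% interval -0.51 to 0.65, edgeR adjusted p = 0.972), and none of the 6 members differed between these stages, where 0.494% of all genes, 63 in number, were called (0.447% higher and 0.0471% lower). By DESeq2's Wald test, too, no member passed that comparison, and none had an unadjusted edgeR p under 0.05. With clusters in place of the marker gates 1402 genes were called between the stages, 523 higher and 879 lower, and 2 members were among them. *Pdgfa* was higher in late OB-like cells by 2.65 (edgeR adjusted p = 8.29e-06) and *Pdgfra* lower (-2.53, edgeR adjusted p = 0.00362). The late OB-like cluster had 68 cells, of which 25 had been assigned by the gates, all of them as late OB-like. Most of its cells thus lay outside the gated set.

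SC-like cells had 9.60, 54.8 and 20.9 CPM of *Pdgfra* (28.4 ± 23.5), from 1, 6 and 31 UMIs. They lay below mpMSC-like cells of the same library in 3 of 3 libraries, and their metaphyseal values differed most among the populations with *Pdgfra*. The difference from mpMSC-like cells, -1.21 (SE 0.45, edgeR adjusted p = 0.116), did not pass, and it passed when clusters replaced the marker gates (-1.45, edgeR adjusted p = 0.00682). OB-like cells were higher in *Pdgfra* than SC-like cells by 2.23 (SE 0.41, edgeR adjusted p = 4.46e-05), with an adjusted p of 0.0958 in DESeq2's Wald test and a difference of 1.31 on library totals (edgeR adjusted p = 0.0127). Fibroblast-like cells, marked by *Dpt* and *Clec3b*, were frequent enough in the Pdgfra-GFP+ library only, where they had 48.6 CPM (exact 95% Poisson interval 39.1 to 59.9, counting error only, 89 UMIs). That was 0.43 above mpMSC-like cells of the same library on the log2 scale (interval 0.06 to 0.79), with no replicate. This is a ratio of CPM without TMM, unlike the fold changes beside it. TMM moved fibroblast-like cells up by 0.28 relative to mpMSC-like cells. Chondrocytes ranged from 0 to 10.1 CPM over their populations and libraries. Averaged over growth-plate and hypertrophic chondrocyte-like cells, *Pdgfra* was lower than in mpMSC-like cells (log2 fold change -2.695, SE 0.37, edgeR adjusted p = 1.23e-07) and by more without the Pdgfra-GFP+ library (-6.46, edgeR adjusted p = 2.79e-08). The size of the latter value is not well determined, since it rests on counts at or near 0. In the metaphyseal libraries growth-plate chondrocyte-like cells had 0 *Pdgfra* UMIs in 15 and 13 cells. Hypertrophic ones had 3 and 2 UMIs in 21 and 19 cells. In arterial EC-like cells no *Pdgfra* UMI was counted in any library, where 3 counts would have been 6.84, 7.74 and 8.76 CPM.

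Seen as shares of a library's *Pdgfra* UMIs in cells, the SC-like, mpMSC-like and dpMSC-like stroma held 68.9%, 70.9% and 54.3%, and osteoblasts 24.6%, 22.9% and 27.3%. EC-like cells, 46.4% and 43.5% of the metaphyseal cells and 2.73% of the others, held 0.193%, 0.839% and 0.222%. Droplets with at most 100 UMIs, which mainly hold free RNA, contained *Pdgfra* at 81.9, 74.9 and 37.0 CPM, and its part in the low levels of chondrocytes and endothelium was not tested. Thinned to 2000 UMIs per cell, 36.4%, 39.7% and 18.4% of dpMSC-like cells had at least 1 *Pdgfra* UMI, against 0 of 383, 0 of 313 and 0 of 70 sinusoidal EC-like cells, which allows shares of cells with a UMI at this depth of up to 0.783%, 0.958% and 4.29%. Before thinning, the dpMSC-like shares were 73.4%, 73.1% and 31.7% at median depths of 5667, 5765 and 3636.5 UMIs, and the sinusoidal shares were 0.261%, 0.958% and 1.37% at 5583, 5896 and 5193 UMIs.

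**Figure D1:**
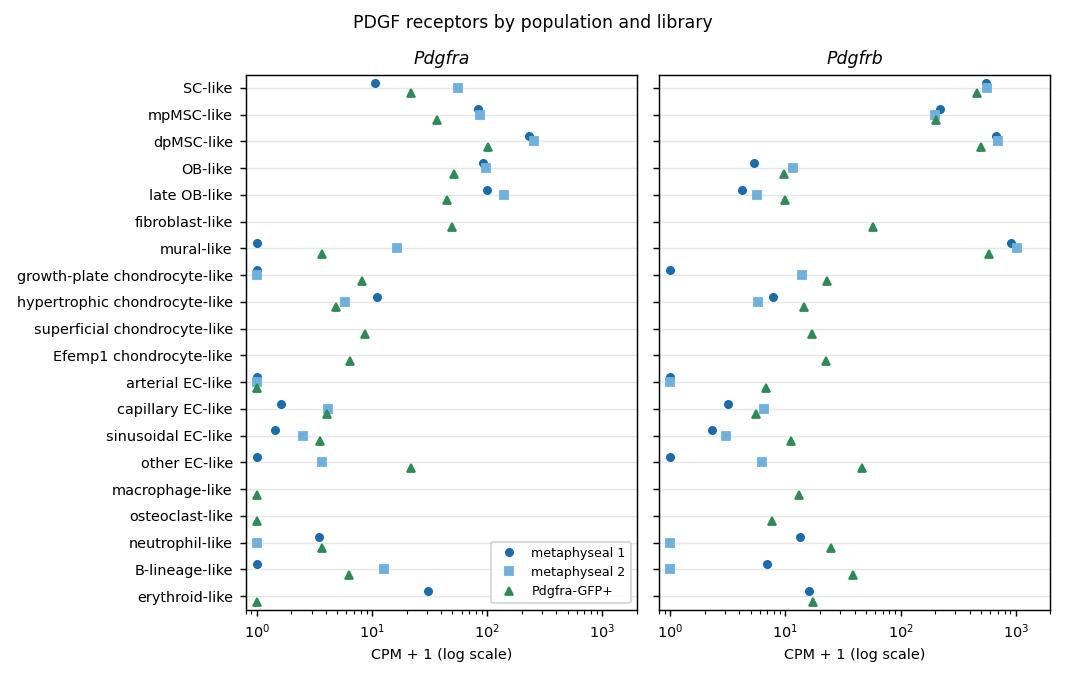
Levels of *Pdgfra* and *Pdgfrb*, as CPM + 1 on a log axis, in each of 20 marker-gated populations. Circles and squares are metaphyseal replicates 1 and 2 and triangles the Pdgfra-GFP+ library; *Pdgfra* is highest in dpMSC-like cells (196 ± 83.3 CPM) and *Pdgfrb* in mural-like cells (838 ± 224 CPM).

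*Pdgfrb*, the gene for receptor β, was a transcript of mural cells and stroma and was low in osteoblasts. Mural-like cells, gated by *Rgs5* with other pericyte and smooth muscle genes, had 901, 1024 and 590 CPM (838 ± 224), dpMSC-like cells 671, 700 and 500 (624 ± 108) and SC-like cells 557, 566 and 464 (529 ± 56.2). mpMSC-like cells had 221, 200 and 201 CPM (207 ± 11.7) and OB-like cells 4.30, 10.7 and 8.79 (7.95 ± 3.31). Mural-like, dpMSC-like and SC-like cells followed that order within every library but overlapped across libraries, while every one of their values was above the mpMSC-like range, and OB-like cells were far below. Fibroblast-like cells had 56.8 CPM (46.4 to 68.9) in the Pdgfra-GFP+ library, below the mpMSC-like cells of that library by more than the counting error. Droplets of at most 100 UMIs held *Pdgfrb* at 170, 168 and 112 CPM, above the fibroblast-like level and near the mpMSC-like levels of the metaphyseal libraries. The part of free RNA in these levels was not tested.

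Against mpMSC-like cells, *Pdgfrb* was lower in OB-like cells (log2 fold change -3.97, SE 0.39, edgeR adjusted p = 1.02e-10). It was higher in mural-like cells by 1.71 (SE 0.35, edgeR adjusted p = 0.000382) and in dpMSC-like cells by 1.56 (SE 0.33, edgeR adjusted p = 0.000251), each in 3 of 3 libraries. The SC-like difference of 1.03 (SE 0.36, 95% interval 0.33 to 1.73, edgeR adjusted p = 0.0790) did not pass, although it passed under 7 alternatives, among them without the Pdgfra-GFP+ library (1.16, edgeR adjusted p = 0.00329). Among the 3 highest populations, mural-like and dpMSC-like cells differed by 0.15 (SE 0.33, edgeR adjusted p = 0.829), SC-like and dpMSC-like cells by -0.53 (SE 0.34, edgeR adjusted p = 0.312) and mural-like and SC-like cells by 0.68 (SE 0.36, edgeR adjusted p = 0.325). The last of these passed without the Pdgfra-GFP+ library (0.82, edgeR adjusted p = 0.0335). The mural-like call against mpMSC-like cells was lost without metaphyseal replicate 2 (edgeR adjusted p = 0.0517), without the replicate block (0.0632) and in DESeq2's Wald test (0.0689), and the dpMSC-like call without the block (0.0717) and in DESeq2's Wald test (0.144). Because stroma was abundant, it held 88.4%, 88.9% and 76.4% of the *Pdgfrb* UMIs, and mural-like cells 2.71%, 3.87% and 1.64%.

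The ligand genes were not all highest in the same cell group, although *Pdgfb* and *Pdgfd* were both highest in arterial EC-like cells. Promoter windows are shown for *Pdgfa*, *Pdgfc* and *Pdgfd* so that genes of different groups can be set side by side, none being used here for *Pdgfb*. *Pdgfa* (ENSMUSG00000025856.15) lies on the minus strand of chromosome 5 (chr5:138976014-138997370), *Pdgfb* (ENSMUSG00000000489.7) on the minus strand of chromosome 15 (chr15:79995874-80014977), *Pdgfc* (ENSMUSG00000028019.9) on the plus strand of chromosome 3 (chr3:81036416-81214040) and *Pdgfd* (ENSMUSG00000032006.15) on the plus strand of chromosome 9 (chr9:6168584-6378850), all in GRCm38. The windows below are chr5:138994945-138995194 on the minus strand for *Pdgfa*, chr3:81036166-81036415 for *Pdgfc* and chr9:6168236-6168485 for *Pdgfd*, both on the plus strand, from RefSeq on GRCm38.p6.
Pdgfa: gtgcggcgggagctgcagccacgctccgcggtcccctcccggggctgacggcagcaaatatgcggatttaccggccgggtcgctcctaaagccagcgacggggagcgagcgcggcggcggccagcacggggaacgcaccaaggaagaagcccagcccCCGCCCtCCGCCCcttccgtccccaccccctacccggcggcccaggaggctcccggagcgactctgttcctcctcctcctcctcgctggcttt
Pdgfc: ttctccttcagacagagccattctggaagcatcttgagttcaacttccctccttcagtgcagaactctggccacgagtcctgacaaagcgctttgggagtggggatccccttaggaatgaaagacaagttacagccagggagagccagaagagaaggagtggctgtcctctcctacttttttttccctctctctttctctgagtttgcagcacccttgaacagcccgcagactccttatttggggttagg
Pdgfd: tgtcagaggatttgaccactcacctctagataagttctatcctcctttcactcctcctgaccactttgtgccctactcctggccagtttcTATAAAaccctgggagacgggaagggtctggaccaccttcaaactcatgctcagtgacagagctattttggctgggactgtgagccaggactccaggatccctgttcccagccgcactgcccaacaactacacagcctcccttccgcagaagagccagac
The *Pdgfa* window held 2 GC boxes and 28 CG dinucleotides, more than 92.4% of promoter windows. *Pdgfc* and *Pdgfd* had 3 CG dinucleotides each, and the *Pdgfd* window held the letters TATAAA. That run lay nearer the far end of the window than the start, and whether it acts as a TATA box was not tested. RefSeq gave another *Pdgfa* start, whose window (chr5:138994282-138994531, minus strand) held 1 GC box and 19 CG dinucleotides.

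*Pdgfa*, the gene for the A chain, was high in mural-like cells, at 253, 318 and 276 CPM (283 ± 32.8). Late OB-like cells had 79.6, 112 and 334 CPM, SC-like cells 96.0, 146 and 153, OB-like cells 171, 131 and 89.1 and mpMSC-like cells 135, 105 and 80.9. dpMSC-like cells had 78.3, 70.8 and 61.7 CPM and capillary EC-like cells 53.0, 50.9 and 29.2. Mural-like cells exceeded every other population of at least 10 cells in both metaphyseal libraries but not in the Pdgfra-GFP+ library, where late OB-like cells were higher, and the late OB-like value of that library was far outside the other 2. Osteoclast-like cells, fibroblast-like cells and macrophage-like cells, measured in the Pdgfra-GFP+ library alone, had 87.6, 83.1 and 55.7 CPM. Droplets of at most 100 UMIs held *Pdgfa* at 75.8, 48.4 and 64.0 CPM, near the dpMSC-like and capillary EC-like levels, and the part of free RNA in those levels was not tested.

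Mural-like cells were higher in *Pdgfa* than dpMSC-like cells by 1.78 (SE 0.40, edgeR adjusted p = 0.000869). Against mpMSC-like cells they differed by 1.18 (SE 0.42, 95% interval 0.364 to 1.996, edgeR adjusted p = 0.0504), just short of the threshold. It passed under 9 alternatives, but was 0.52 with clusters in place of gates (edgeR adjusted p = 0.494) and 1.18 without metaphyseal replicate 2 (edgeR adjusted p = 0.260). Capillary EC-like cells were lower in *Pdgfa* than mpMSC-like cells (log2 fold change -1.17, SE 0.39, edgeR adjusted p = 0.0139) in 3 of 3 libraries, a call lost without metaphyseal replicate 1 (-1.15, edgeR adjusted p = 0.0511) or 2 (-1.20, 0.103), with 1 more marker for every gate (-0.67, 0.231) and with cells thinned to 2000 UMIs (-0.85, 0.0649). Capillary EC-like cells were higher than sinusoidal EC-like cells, which had 15.5, 14.9 and 10.2 CPM, by 1.69 (SE 0.46, edgeR adjusted p = 0.00896), a call that ended without metaphyseal replicate 1 (0.0960), without metaphyseal replicate 2 (0.184) or without the block (0.0655). The OB-like difference from mpMSC-like cells was 1.03 (SE 0.35, edgeR adjusted p = 0.0218) with TMM and 0.35 (edgeR adjusted p = 0.402) on library totals, and it did not pass without metaphyseal replicate 1 (0.0608) or 2 (0.142). It was 0.10 with clusters in place of gates (edgeR adjusted p = 0.874), and the call also ended without the block (0.188) and in DESeq2's Wald test (0.173). *Pdgfa* did not differ beyond its error between SC-like and mpMSC-like cells (0.22, SE 0.43, 95% interval -0.61 to 1.05, edgeR adjusted p = 0.875). Of all *Pdgfa* UMIs in cells, osteoblasts held 39.8%, 36.7% and 31.4%, stroma 26.9%, 29.4% and 27.8%, and EC-like cells 16.4%, 16.6% and 0.851%.

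*Pdgfb*, the gene for the B chain, was an endothelial transcript in the metaphyseal libraries, highest in arterial EC-like cells. These cells, gated by genes such as *Gja5* and *Sema3g*, had 321, 325 and 196 CPM (281 ± 73.7). EC-like cells of no subtype, called other EC-like, had 134, 91.6 and 120 CPM (115 ± 21.4), capillary EC-like cells 101, 116 and 96.9 (105 ± 10.0) and sinusoidal EC-like cells 72.7, 74.0 and 86.9 (77.8 ± 7.83). The arterial values lay above those of every other EC-like population in all 3 libraries, and the capillary and sinusoidal ranges did not overlap. Arterial EC-like cells exceeded sinusoidal EC-like cells by 1.86 (SE 0.25, edgeR adjusted p = 4.28e-07) and capillary EC-like cells by 1.34 (SE 0.24, edgeR adjusted p = 9.59e-05). Against other EC-like cells the difference was 1.33 (SE 0.26, edgeR adjusted p = 0.000606), lost without metaphyseal replicate 2 (1.06, edgeR adjusted p = 0.191), without the block (0.0671) and in DESeq2's Wald test (0.142). Between capillary and sinusoidal EC-like cells it was 0.52 (SE 0.25, edgeR adjusted p = 0.172), and it passed without the Pdgfra-GFP+ library (0.52, edgeR adjusted p = 0.0101).

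EC-like cells held 96.6% (exact binomial 95% interval 95.1 to 97.7) and 93.3% of the *Pdgfb* UMIs of the metaphyseal libraries, from which blood cells had been depleted. These are shares of the cells left after depletion and not of the tissue. In the Pdgfra-GFP+ library they held 65.2%, and haematopoietic cells 22.0%, with 125 CPM (87.8 to 172) in osteoclast-like and 45.2 CPM in macrophage-like cells. Mural-like cells had 37.5, 31.0 and 21.2 CPM of *Pdgfb* from 4, 4 and 8 UMIs, where droplets of at most 100 UMIs held 36.8, 47.0 and 2.41 CPM, and were below arterial EC-like cells by a log2 difference of 3.35 (SE 0.41, edgeR adjusted p = 5.43e-08). Thinned to 2000 UMIs, *Pdgfb* was found in 40.3%, 45.3% and 18.0% of arterial EC-like cells against 0.541%, 0 of 683 (up to 0.439% with a UMI) and 0.0256% of dpMSC-like cells. Unthinned, the arterial shares were 75.8%, 83.0% and 48.4% at medians of 6325.5, 6956 and 4389.5 UMIs, and the dpMSC-like shares were 0.946%, 0.293% and 0.0478%. Arterial EC-like cells thus combined the highest *Pdgfb* with *Pdgfra* at 0 UMIs, and mural-like cells the highest *Pdgfrb* with little *Pdgfb*.

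*Pdgfc*, the gene for the C chain, was highest in osteoblasts in both metaphyseal libraries, where fibroblast-like cells were not measured. In the Pdgfra-GFP+ library fibroblast-like cells were as high as osteoblasts. Late OB-like cells had 81.2, 69.8 and 29.6 CPM (60.2 ± 27.1), OB-like cells 58.5, 53.7 and 30.8 (47.7 ± 14.8) and mpMSC-like cells 51.7, 31.0 and 23.3 (35.3 ± 14.7). dpMSC-like cells, the highest in *Pdgfra*, had 0.458, 0.488 and 1.63 CPM, and capillary EC-like cells 1.58, 1.19 and 1.54. The osteoblast and mpMSC-like ranges overlapped, and every value of theirs was more than 10 times the highest dpMSC-like and capillary value. Against mpMSC-like cells, *Pdgfc* was lower in dpMSC-like cells (log2 fold change -4.63, SE 0.36, edgeR adjusted p = 3.66e-13), in capillary EC-like cells (-4.60, SE 0.49, edgeR adjusted p = 2.16e-10) and in the chondrocyte mean (-1.42, SE 0.31, edgeR adjusted p = 0.000313). The chondrocyte difference grew to -3.83 without the Pdgfra-GFP+ library. That value rests on 0 and 1 *Pdgfc* UMIs in growth-plate and 1 and 1 in hypertrophic chondrocyte-like cells. dpMSC-like cells were below OB-like cells by more still (-5.84, SE 0.32, edgeR adjusted p = 7.89e-19), a comparison in which 1 member was higher and 3 were lower while 54.0% of all genes were called, 30.1% higher and 23.9% lower.

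Between OB-like and mpMSC-like cells, *Pdgfc* differed by 1.21 (SE 0.26, edgeR adjusted p = 0.000321) with TMM and by 0.47 (edgeR adjusted p = 0.130) on library totals, and DESeq2's Wald test gave an adjusted p of 0.185. Osteoblasts held 73.9%, 76.5% and 45.2% of the *Pdgfc* UMIs, while they were 8.16%, 8.40% and 14.3% of the cells. OB-like cells also held more UMIs of all genes per cell, with medians of 21599, 20700.5 and 11592. Over all cells the medians were 6257, 6458 and 5354, so shares of cells understate the osteoblasts' part of all UMIs. SC-like cells had 9.60, 36.5 and 13.5 CPM of *Pdgfc*. Fibroblast-like cells, measured in the Pdgfra-GFP+ library only, had 33.9 CPM (26.0 to 43.4), the highest value of that library. Its OB-like and late OB-like values, 30.8 and 29.6 CPM, lay within that counting interval. Droplets of at most 100 UMIs held *Pdgfc* at 24.7, 16.4 and 19.1 CPM, and the part of free RNA in the levels of cells was not tested. Counting the members in the OB-like against mpMSC-like comparison, *Pdgfra*, *Pdgfa* and *Pdgfc* were called higher and *Pdgfrb* lower, beside 33.6% of all genes called (15.8% higher and 17.8% lower), and the 3 higher calls were those lost on library totals.

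*Pdgfd*, the gene for the D chain, was highest in arterial EC-like cells. At lower levels it was found mainly in mpMSC-like, dpMSC-like, osteoblast and other endothelial populations. Arterial EC-like cells had 144, 212 and 146 CPM (167 ± 38.6), other EC-like cells 37.7, 25.2 and 74.3, and capillary EC-like cells 20.2, 17.5 and 18.5. mpMSC-like cells had 18.8, 52.4 and 51.2 CPM, dpMSC-like cells 42.8, 40.7 and 33.0, and OB-like cells 36.4, 31.6 and 34.9. Droplets of at most 100 UMIs held *Pdgfd* at 31.2, 26.5 and 29.6 CPM, and the part of free RNA in the levels of cells was not tested. In the Pdgfra-GFP+ library growth-plate chondrocyte-like cells had 2.55 CPM and hypertrophic ones 0 (3 counts being 0.903 CPM). The mpMSC-like, dpMSC-like and OB-like levels of that library were 33.0 to 51.2 CPM. All 3 arterial values lay above those of the other populations of at least 10 cells, among which stroma and osteoblasts overlapped. Mural-like cells had 0, 0 and 1 *Pdgfd* UMIs, where 3 counts would be 28.2, 23.3 and 7.97 CPM. SC-like cells had 1, 0 and 1 *Pdgfd* UMIs, that is 9.60 CPM, 0 (3 counts being 27.4 CPM) and 0.676 CPM. In the Pdgfra-GFP+ library, the only one with depth for it, the SC-like level was thus far under the mpMSC-like level of 51.2 CPM.

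Arterial EC-like cells were higher in *Pdgfd* than capillary EC-like cells by 3.04 (SE 0.32, edgeR adjusted p = 5.64e-09), than sinusoidal EC-like cells by 3.76 (SE 0.36, edgeR adjusted p = 1.32e-10) and than mpMSC-like cells by 1.74 (SE 0.30, edgeR adjusted p = 1.51e-05). Against other EC-like cells the difference was 2.09 (SE 0.34, edgeR adjusted p = 4.51e-05) and, without metaphyseal replicate 2, 1.58 (edgeR adjusted p = 0.0855). *Pdgfb* and *Pdgfd*, both ligands of receptor β, were the 2 members called between arterial and capillary EC-like cells, both higher, beside 9.67% of all genes (4.31% higher and 5.36% lower). Capillary EC-like cells were lower in *Pdgfd* than mpMSC-like cells (log2 fold change -1.30, SE 0.33, edgeR adjusted p = 0.0015) in 2 of 3 libraries, a call lost without metaphyseal replicate 2 (-1.01, edgeR adjusted p = 0.0800) and in DESeq2's Wald test (0.0505). In SC-like cells *Pdgfd* was lower than in mpMSC-like cells (-5.23, SE 0.79, edgeR adjusted p = 1.56e-05), which rests on the Pdgfra-GFP+ library (-3.07 without it, edgeR adjusted p = 0.196). It was the 1 member of 6 called between these populations, where 6.3% of all genes were (2.95% higher and 3.35% lower). In the chondrocyte mean *Pdgfd* was lower as well (-4.35, SE 0.43, edgeR adjusted p = 1.37e-10). With it, 4 of the 6 members were lower and none higher in chondrocytes, beside 35.8% of all genes called (16.7% higher and 19.2% lower).

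**Figure D2:**
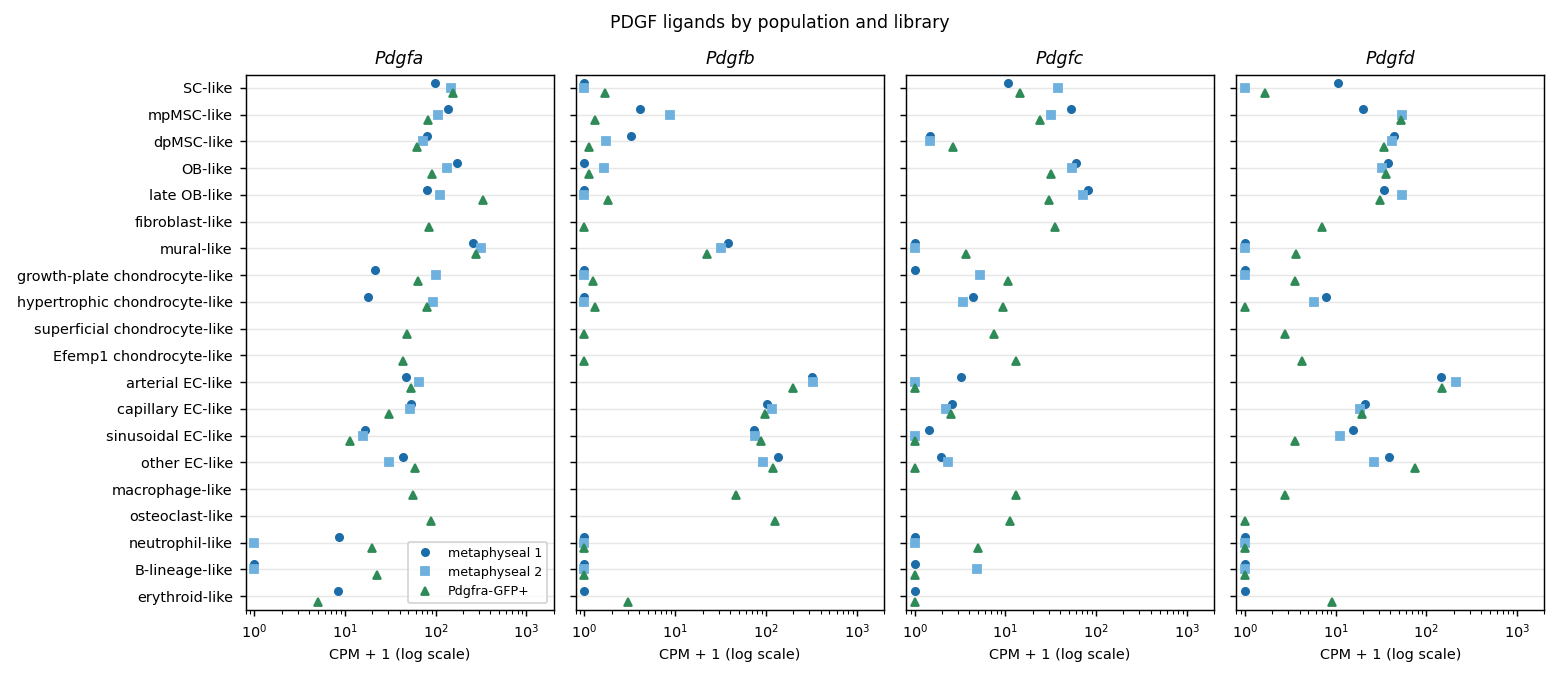
Levels of *Pdgfa*, *Pdgfb*, *Pdgfc* and *Pdgfd*, as CPM + 1 on a log axis, in the same 20 populations and with the same symbols for the libraries. By mean CPM over the 3 libraries, *Pdgfb* (281 ± 73.7 CPM) and *Pdgfd* (167 ± 38.6 CPM) peak in arterial EC-like cells, *Pdgfa* (283 ± 32.8 CPM) in mural-like cells and *Pdgfc* in osteoblasts (late OB-like 60.2 ± 27.1 CPM). In the Pdgfra-GFP+ library fibroblast-like cells were highest in *Pdgfc* (33.9 CPM).

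In the order of mean levels, most neighbouring populations did not differ beyond their spread. For *Pdgfra* only the steps from OB-like to mpMSC-like and from growth-plate chondrocyte-like to capillary EC-like cells passed (2.89 for the latter, edgeR adjusted p = 0.000484), and for *Pdgfrb* only that from mpMSC-like to other EC-like cells (4.81, edgeR adjusted p = 1.43e-09). The 2.89 of *Pdgfra* comes from the fitted model and was not seen in CPM. Growth-plate chondrocyte-like cells had 0, 0 and 7.26 CPM, from 0, 0 and 57 UMIs. Capillary EC-like cells had 0.630, 3.18 and 3.08 CPM, the lower value in the Pdgfra-GFP+ library only. *Pdgfb* had a step from arterial to other EC-like cells, from sinusoidal EC-like to mural-like cells (1.49, edgeR adjusted p = 0.0151) and from mural-like to mpMSC-like cells (4.15, edgeR adjusted p = 0.000183). For *Pdgfc* the steps were from OB-like to mpMSC-like and from growth-plate chondrocyte-like to capillary EC-like cells (3.36, edgeR adjusted p = 5.61e-06). The latter step rests on 0, 1 and 76 *Pdgfc* UMIs in growth-plate chondrocyte-like cells, so mainly on the Pdgfra-GFP+ library. For *Pdgfd* they were from arterial to other EC-like and from OB-like to capillary EC-like cells (1.67, edgeR adjusted p = 8.67e-06). *Pdgfa* had steps from late OB-like to SC-like cells (1.28, edgeR adjusted p = 0.0190) and from OB-like to mpMSC-like cells. The former was a difference on the TMM scale, which moved late OB-like cells by 0.63 and SC-like cells by -0.30 relative to mpMSC-like cells, and in CPM late OB-like cells exceeded SC-like cells in the Pdgfra-GFP+ library but not in the metaphyseal libraries.

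The reporter transcript *H2B_GFP* had 0 UMIs over all barcodes of both metaphyseal libraries, which lack the transgene, and 8437 UMIs in the Pdgfra-GFP+ library, 7524 of them in cells. The study's methods name Pdgfra-H2B-GFP heterozygous males for this library, and Hey1-GFP mice for imaging and cell culture. From which allele the counted sequence came was not tested here, so the values below are those of the counted sequence. It was not highest where *Pdgfra* was highest. Within that library, mural-like cells had 1179 CPM of *H2B_GFP* (444 UMIs) with 1 *Pdgfra* UMI, arterial EC-like cells 549 CPM (188 UMIs) with 0 and SC-like cells 420 CPM (621 UMIs) with 31. mpMSC-like cells had 152 CPM (1022 against 243 UMIs), dpMSC-like cells 122 CPM (2014 against 1678) and fibroblast-like cells 61.2 CPM (112 against 89). OB-like cells had 48.0 CPM (874 against 928 UMIs) and late OB-like cells 41.1 CPM (50 against 53). The populations with the most reporter transcript per UMI therefore included mural-like and arterial EC-like cells, in which *Pdgfra* was at or near 0, whereas from dpMSC-like to late OB-like cells the 2 counts were alike.

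The capture of the 2 transcripts may differ, so their ratio is compared between populations and not read as a ratio of molecules. It was 1.20 in dpMSC-like cells (exact 95% interval 1.12 to 1.28, counting error only), 1.26 in fibroblast-like cells (0.944 to 1.68), 0.942 in OB-like cells (0.858 to 1.03) and 0.943 in late OB-like cells (0.628 to 1.42). In mpMSC-like cells it was 4.21 (3.65 to 4.86) and in SC-like cells 20.03 (14.0 to 29.7), above the former by more than the counting error. For mural-like cells the ratio was 444 (79.3 to 17576) and for arterial EC-like cells at least 62.7 with *Pdgfra* set at 3 counts. Chondrocytes held little of either transcript, with ratios of 2.05 (1.48 to 2.87) in growth-plate, 2.23 (1.12 to 4.67) in hypertrophic and 3.69 (1.97 to 7.43) in superficial chondrocyte-like cells, at 14.9, 8.73 and 28.7 CPM of *H2B_GFP*. These levels, and those of fibroblast-like, OB-like and late OB-like cells, were below the 65.5 CPM of *H2B_GFP* in droplets of at most 100 UMIs, and the part of free RNA in them and in their ratios was not tested. Sinusoidal EC-like cells of the sorted library had 0 *H2B_GFP* UMIs, where 3 counts would be 7.66 CPM, and capillary EC-like cells 5.

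**Figure D3:**
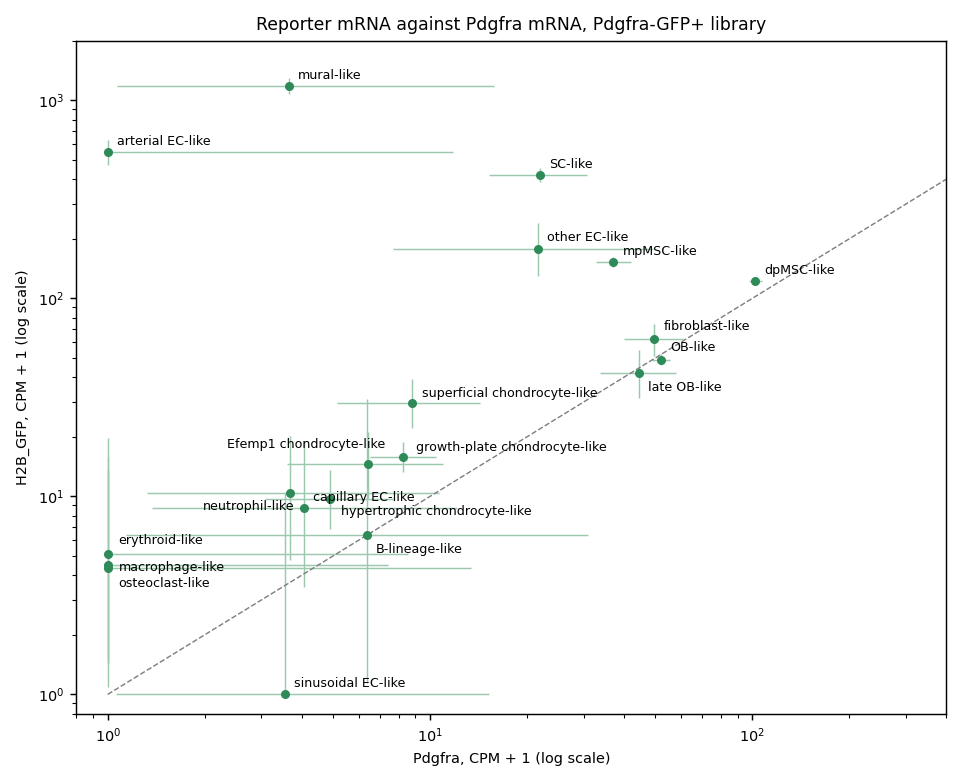
*H2B_GFP* against *Pdgfra* in the Pdgfra-GFP+ library, both as CPM + 1 on log axes, for 20 populations; bars are exact 95% Poisson intervals and the dashed line marks equal levels. dpMSC-like, fibroblast-like and osteoblast populations lie near the line, while mural-like (1179 CPM of *H2B_GFP*), arterial EC-like (549) and SC-like (420) cells lie far above it.

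Across the 20 populations, *H2B_GFP* correlated with *Pdgfra* at Pearson's r 0.35 (Spearman's rho 0.51) and with *Pdgfrb* at 0.68 (0.50), on log2 levels of this single library. Leaving out mural-like, arterial EC-like, other EC-like and SC-like cells, a choice made after their values were seen, r with *Pdgfra* was 0.91 (rho 0.92) over the remaining 16 and r with *Pdgfrb* 0.74 (0.51). By amount, the stroma held 48.6% of the reporter UMIs in cells, osteoblasts 12.3%, mural-like cells 5.90% while being 0.583% of the cells, EC-like cells 3.14% and chondrocytes 2.91% while being 14.8% of the cells. Cells with no population held 25.5%.

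Reporter transcripts were unevenly spread over the cells of a population. At least 5 *H2B_GFP* UMIs were found in 232 of 11319 cells. Without a population were 77 that met no gate and 5 left out for another close lineage. The others included 51 mpMSC-like, 29 SC-like, 23 mural-like, 21 dpMSC-like and 11 arterial EC-like cells. Cells with at least 5 UMIs made up 34.8% of mural-like, 17.2% of arterial EC-like, 16.8% of SC-like and 5.30% of mpMSC-like cells, but 0.502% of dpMSC-like and 0.590% of OB-like cells. They carried 90.8% of the *H2B_GFP* UMIs of mural-like cells, 91.8% of those of SC-like, 80.9% of those of arterial EC-like and 51.6% of those of mpMSC-like cells, against 9.83% in dpMSC-like and 6.64% in OB-like cells. The highest single cells had 71 *H2B_GFP* UMIs among mural-like, 51 among SC-like and 49 among mpMSC-like cells. Cells with at least 5 UMIs were thus a minority of SC-like, mural-like and arterial EC-like cells but held most of their reporter transcript. In dpMSC-like and OB-like cells most UMIs came from cells with 1 to 4 each. At a thinned depth of 2000 UMIs, *H2B_GFP* was detected in 59.4% of mural-like, 37.7% of arterial EC-like, 21.1% of SC-like, 19.7% of dpMSC-like, 19.3% of mpMSC-like, 9.90% of OB-like and 9.86% of fibroblast-like cells, against 0 of 85 macrophage-like cells (up to 3.53% with a UMI) and 0 of 70 sinusoidal EC-like cells (up to 4.29% with a UMI). Unthinned, these shares were 65.2% in mural-like cells (median 5540.5 UMIs), 33.4% in dpMSC-like cells (3636.5), 35.3% in OB-like cells (11592) and 2.27% in macrophage-like cells (6042.5).

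In stroma and osteoblasts, cells with more reporter transcript did not in general have more *Pdgfra*. In mpMSC-like cells *Pdgfra* was 32.7, 40.4 and 41.5 CPM in cells with 0, 1 to 4 and at least 5 *H2B_GFP* UMIs, and in dpMSC-like cells 107, 92.0 and 101 CPM. OB-like cells had 59.2, 38.5 and 29.4 CPM over these classes and SC-like cells 19.3, 14.0 and 34.0, the highest classes resting on 4 and 9 *Pdgfra* UMIs. In fibroblast-like cells *Pdgfra* was 35.8 CPM in cells without and 70.6 in cells with 1 to 4 reporter UMIs. Chondrocytes also had more *Pdgfra* in the latter class. It was 8.68 against 7.13 CPM in growth-plate and 9.15 against 3.54 in hypertrophic chondrocyte-like cells. In superficial and Efemp1 chondrocyte-like cells it was 9.76 against 7.31 and 17.7 against 4.18 CPM. In that order the classes with 1 to 4 reporter UMIs rested on 6, 2, 3 and 3 *Pdgfra* UMIs. Co-detection in thinned cells was near the product of the separate shares in dpMSC-like cells (3.81%, exact binomial 95% interval 3.23 to 4.46, product 3.61), in mpMSC-like cells (1.48%, product 1.23) and in OB-like cells (0.787%, product 0.928). In fibroblast-like cells it was 2.46% (7 of 284 cells, interval 0.997 to 5.01), and the product of 1.01 lay within that interval. In growth-plate chondrocyte-like cells it was 0.321% (3 of 935 cells, interval 0.0662 to 0.935), and the product of 0.0498 lay below that interval. All these values come from 1 library and have no replicate.

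**Figure D4:**
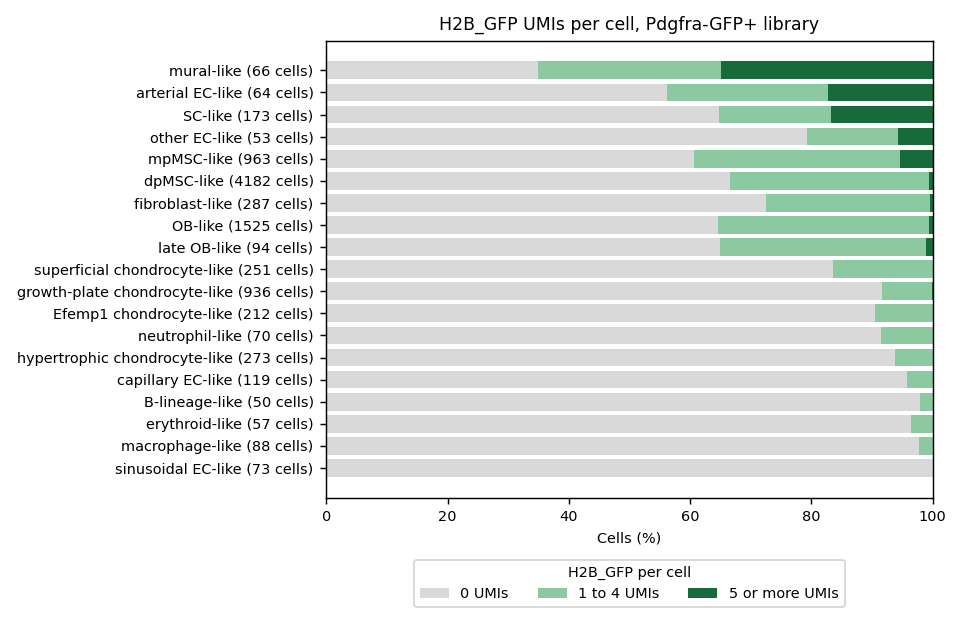
Share of cells, in percent, with 0, 1 to 4 and at least 5 *H2B_GFP* UMIs in 19 populations of the Pdgfra-GFP+ library. The class with at least 5 UMIs is widest in mural-like (34.8%), arterial EC-like (17.2%) and SC-like (16.8%) cells and narrow in dpMSC-like (0.502%) and OB-like (0.590%) cells.

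*Pdgfra* itself was lower in the Pdgfra-GFP+ library than in the metaphyseal libraries within the same populations. The ratio of its CPM to the mean of both metaphyseal libraries was 0.415 in dpMSC-like, 0.429 in mpMSC-like, 0.365 in late OB-like and 0.543 in OB-like cells, and 0.651 in SC-like cells, where the metaphyseal counts were 1 and 6 UMIs. The median ratio of all genes in those populations was 0.958, 1.01, 0.884, 0.780 and 0.869. In dpMSC-like cells 3.01% of 6479 genes had a ratio as low as that of *Pdgfra*, in mpMSC-like cells 2.57% of 5908, in late OB-like cells 4.01% of 4087, in OB-like cells 13.0% of 4304 and in SC-like cells 29.8% of 6235. *Pdgfrb* stood at 0.729 in dpMSC-like and 0.957 in mpMSC-like cells. *Pdgfc* had ratios close to those of *Pdgfra*, at 0.549 in OB-like, 0.391 in late OB-like and 0.564 in mpMSC-like cells, and *Pdgfa* stood at 0.589 in OB-like cells. *Pdgfa* in late OB-like cells went the other way, at 3.49. No test was possible against 1 library, and the reporter allele, the sorting, the dissected region and the library cannot be told apart.

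**Figure D5:**
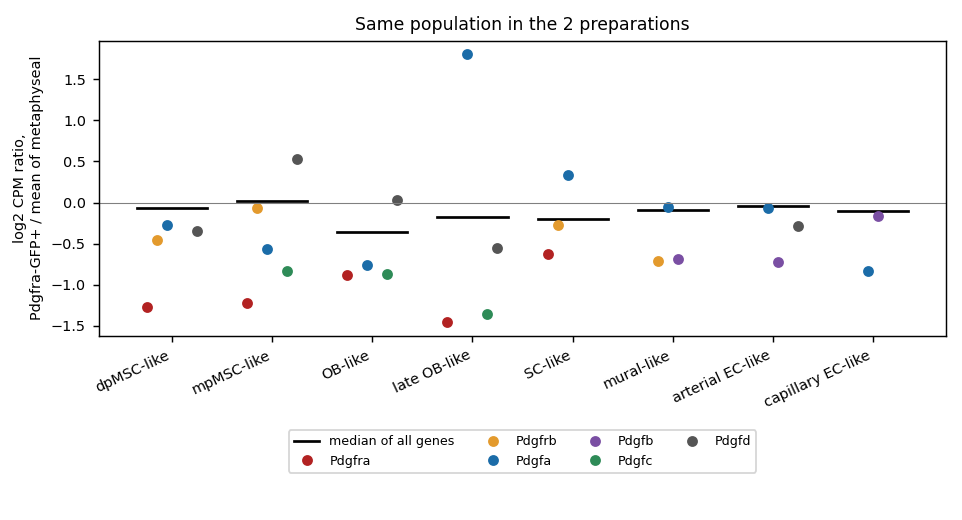
Log2 ratio of each member's CPM in the Pdgfra-GFP+ library to its mean in the 2 metaphyseal libraries, in 8 populations; the black bar is the median of all genes measured in that population. *Pdgfra* lies below the bar in each population shown for it (ratio 0.415 in dpMSC-like cells), and *Pdgfa* lies above it in late OB-like cells (3.49).

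The genes whose mean levels over the 20 populations were most like those of each member were listed by Pearson's r of log2(CPM + 10) over 10663 genes, as a description. *Itga11*, a collagen-binding integrin subunit, was most like *Pdgfra* (r 0.97), followed by *Mmp23* (0.92), *Fign* (0.89), *Podxl2* (0.88) and *Nnmt* (0.87). For *Pdgfrb* they were *Foxs1* (0.97), *Ednra*, an endothelin receptor (0.96), *Mmp11* (0.96), *Ror1* (0.95) and *Heyl*, a Notch target (0.95). *Pdgfc* was followed by *Tmem119* (0.93), *Ust* (0.92), *Creb3l1* (0.89), *Mmp2* (0.89) and *Lum* (0.87). *Pdgfb* was followed by *Prkch* (0.93), *Dram2* (0.91), *Parvb* (0.91), *Stard3* (0.90) and *Slc30a1* (0.90). The likeness was weaker for *Pdgfd*, led by *Pcsk5* (0.83), a proprotein convertase, then *Slco3a1* (0.81), *Prickle3* (0.81), *Gm6330* (0.80) and *Nhsl1* (0.78), and for *Pdgfa*, led by *Tmem126a* (0.85), *Sec22a* (0.85), *Cisd3* (0.83), *Ift43* (0.83) and *Numbl* (0.81).

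Other genes of the pathway were followed in lists of ligand-processing proteases, binding partners, adaptors and enzymes recruited by the receptors, negative regulators and related receptor kinases, 48 genes of which 46 were tested. In SC-like against mpMSC-like cells 6 were higher and 1 lower, with a median of 0.02 over the 46 and 6.3% of all genes called. The co-receptor gene *Nrp1* (2.01, edgeR adjusted p = 3.22e-07), the adaptor *Gab1* (1.51) and the feedback inhibitors *Spry4* (1.80) and *Dusp6* (1.43) were among the higher, and the convertase *Pcsk6* was lower (-3.70). In mural-like against mpMSC-like cells 5 were higher and 1 lower, beside 14.1% of all genes (6.19% higher and 7.91% lower), with *Spry4* (2.76), *Nrp1* (2.18), *Spry1* (2.09) and *Spry2* (1.86) higher and *Socs3* lower (-1.20). The counts were 3 higher and 1 lower in SC-like cells without the Pdgfra-GFP+ library, and 3 higher and none lower in mural-like cells without either of the metaphyseal libraries. Without the Pdgfra-GFP+ library 6 were higher and 3 lower in mural-like cells.
In OB-like against mpMSC-like cells 10 pathway genes were higher and 10 lower with TMM, beside 33.6% of all genes called (15.8% higher and 17.8% lower). On library totals 6 were higher and 28 lower, beside 7562 genes called, and the median of all genes moved from -0.05 to -0.76. The matrix protein genes *Sparc* (3.09), whose product binds PDGF, and *Thbs1* (3.02) were higher on the TMM scale, as were *Pcsk6* (4.23) and *Pdgfrl* (3.23), and the plasminogen activator gene *Plat*, whose product can cleave the C chain, was lower (-2.88) with *Shc1* (-1.37) and *Gab1* (-1.30). In the chondrocyte mean 5 were higher and 13 lower with TMM, beside 35.8% of all genes called (16.7% higher and 19.2% lower). On library totals the counts were 5 and 25, beside 5801 genes called. With TMM, *Thbs1* (4.07), *Pdgfrl* (3.01), *Pcsk6* (2.74) and *Sparc* (1.97) were higher and *Plat* (-2.999), *Spry4* (-2.19) and *Spry1* (-1.83) lower. In fibroblast-like cells, which could be compared only within the Pdgfra-GFP+ library and without a test, 6 of 29 measured pathway genes were at least 2-fold above mpMSC-like cells and 4 at least 2-fold below, beside 25.4% of 6372 genes past that fold (11.4% above and 14.0% below). *Pdgfrl*, a receptor-like gene without a kinase domain, had 260 CPM there against 32.7 CPM in mpMSC-like cells.

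In capillary EC-like against mpMSC-like cells 18 pathway genes were higher and 13 lower, and of the members *Pdgfb* was higher and the other 5 lower, beside 38.3% of all genes called (18.1% higher and 20.2% lower). Among the higher were related receptor kinases, the VEGF receptor genes *Flt1* (7.75), *Flt4* (6.60) and *Kdr* (6.57) and the stem cell factor receptor gene *Kit* (4.49), of which *Kdr* and *Flt4* are gating markers of endothelium. *Lrp1*, a co-receptor of receptor β, was lower (-5.64), with *Pcsk5* (-4.46), *Pcsk6* (-3.84) and the phosphatase gene *Ptprj* (-3.73). Between arterial and capillary EC-like cells 3 pathway genes were higher and 4 lower, beside 9.67% of all genes called (4.31% higher and 5.36% lower). The counts became 1 and 2 without either of the metaphyseal libraries and 5 and 6 without the Pdgfra-GFP+ library. *Pcsk5* was higher in arterial EC-like cells by 7.17 (edgeR adjusted p = 4.49e-14), so these cells, the highest in *Pdgfb* and *Pdgfd*, also exceeded capillary cells in a convertase gene. *Spry4* (1.11) and *Nck1* (0.71) were higher too, and *Plau*, the gene of a plasminogen activator that can cleave the D chain (-4.92), *Kit* (-2.93), *Flt4* (-1.74) and the ubiquitin ligase gene *Cblb* (-1.70) were lower.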

How the data were processed

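The deposited files were raw UMI count matrices over all barcodes of the whitelist, without a cell filter. Per the labels and the study's methods, the authors trimmed reads with fastp 0.20 and counted them with STARsolo (STAR 2.7.3a) on mm10 with GENCODE M23 and an added *H2B_GFP* sequence; the labels name both V2 and V3 chemistry, the methods V3. Here, cells with at least 1500 genes (metaphyseal) or 1000 genes (Pdgfra-GFP+), at most 15% mitochondrial and 30% ribosomal UMIs were kept, leaving 2389, 2011 and 11319 cells.

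A marker counted as held when its UMIs exceeded what 10% free RNA, profiled from barcodes of at most 100 UMIs (8.51%, 9.92% and 7.24% of all UMIs), would give (Poisson tail under 0.01). A cell joined the lineage with the greatest share of its markers held; another lineage at 75% or more of the lead left it out, as did too few markers (5.32%, 5.07% and 15.5% of cells had no population). *Rgs5* was required for mural-like cells. The gate thresholds were set after cell numbers and overlap with clusters were seen, and before the levels of the members. Scrublet marked 25, 18 and 192 cells, which were kept; in the Pdgfra-GFP+ library that was 1.70% of cells where 9.06% were expected from the cell number, so its removal leaves most expected doublets. The libraries shared 0 to 10 cell barcodes per pair, where chance would give 0.707 to 3.98. Among defining markers, all 5 of SC-like, 7 of dpMSC-like, 8 of EC-like and 9 of chondrocyte-like cells were highest in their own population, as were 8 of 10 of mural-like, 8 of 10 of fibroblast-like, 4 of 7 of OB-like and 3 of 6 of mpMSC-like cells.

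UMIs were summed per library and population of at least 10 cells and fitted with edgeR 4.0.16 (R 4.3.3; TMM, filterByExpr, quasi-likelihood test, library as a block, threshold 0.05), a pair being tested where each side had at least 2 libraries. Sums of a library share a cell suspension and are paired by it, and their deviations correlated at 0.25 to 0.63 between populations. SE is the absolute log2 fold change over the root of F. *H2B_GFP* and fibroblast-like cells, in 1 library each, have exact intervals for counting error only. The script was tested on simulated data in which 200 genes were raised or lowered 4-fold, in equal numbers. For SC-like against mpMSC-like cells 92 raised and 62 lowered genes were found, and for mural-like against mpMSC-like cells 82 and 48. For arterial against capillary EC-like cells 91 and 59 were found, with 3 to 6 false calls per comparison. Many true differences can therefore be missed, lowered ones more often. Alternatives were stricter gates, clusters (3000 variable genes, 40 components, 15 neighbours, resolution 1.5, made with scanpy 1.11.5), Scrublet removal, 1000 genes in every library, thinning to 2000 UMIs, other scalings, DESeq2 1.42.0, no filter on low counts, at least 25 cells per sum, no block and each library left out; library totals without TMM were added after the data were seen. Gene positions are those of GENCODE M21 and promoters those of RefSeq, which had 5 entries for 4 of the 7 members. Named genes were all members, the 5 genes most like each endogenous member among those with at least 20 CPM in a population and outside the gates, and at most 4 pathway genes per comparison and direction, by size, among those called; a gene this rule names is not reported here. The members and lists were chosen with earlier results of these data known.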

Additional observations from a re-analysis of the deposited data

Results flagged for a closer look

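Some differences between osteoblast stages and mural-like cells went opposite ways in the Pdgfra-GFP+ library and in both metaphyseal libraries. The difference between the kinds of library was not tested in any of these, since the former is a single library, and all values are log2 ratios of CPM + 1. *Pdgfa* in late OB-like against OB-like cells was 1.90 in the Pdgfra-GFP+ library and -1.10 and -0.23 in metaphyseal replicates 1 and 2, and in mural-like against late OB-like cells it was -0.27 and then 1.66 and 1.501. For *Pdgfra* in late OB-like against OB-like cells the values were -0.22, 0.10 and 0.53 in the same order, and for *Pdgfc* -0.0582, 0.47 and 0.37. Late OB-like cells numbered 28, 17 and 94, the last in the Pdgfra-GFP+ library.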

How the results depend on the processing

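The metaphyseal sums of SC-like and mural-like cells come from 10 to 17 cells. Those of growth-plate and hypertrophic chondrocyte-like cells come from 13 to 21. The reporter and fibroblast-like cells were measured in 1 library, and with 1 more marker for every gate no SC-like sum was left in the metaphyseal libraries.

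Under the alternatives, all values being log2 fold changes with edgeR's or DESeq2's adjusted p, *Pdgfra* in OB-like against mpMSC-like cells did not pass on library totals without TMM (0.30, 0.379) or in DESeq2's Wald test (0.81, 0.608), nor without the replicate block (0.95, 0.189). *Pdgfra* in SC-like against mpMSC-like cells passed with clusters in place of gates (-1.45, 0.00682) and with no filter on low counts (-1.25, 0.00897). *Pdgfrb* in mural-like against mpMSC-like cells did not pass in DESeq2's Wald test (2.06, 0.0689) or without the replicate block (1.71, 0.0632). *Pdgfrb* in SC-like against mpMSC-like cells passed after Scrublet removal (1.12, 0.0457), thinning (1.13, 0.0101), with clusters (1.65, 0.00118), DESeq2 size factors (1.24, 0.0309), library totals (1.32, 0.0408) and no filter (0.98, 0.00442). *Pdgfa* in capillary EC-like against mpMSC-like cells was lost with stricter gates (-0.67, 0.231) and thinning (-0.85, 0.0649), and *Pdgfd* in DESeq2's Wald test (-1.24, 0.0505). *Pdgfra* in fibroblast-like against mpMSC-like cells was 0.86 with stricter gates, and the sum of *H2B_GFP* over that of *Pdgfra* UMIs over the populations, 1.79 as first computed (interval 1.72 to 1.87), was 1.57 with stricter gates, 1.64 after thinning and 2.09 with clusters. The block changed no other call among the main comparisons. The causes were not tested.

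Leaving out each library in turn gave -1.37 to -1.15 for *Pdgfa* and -1.66 to -0.99 for *Pdgfd* in capillary EC-like against mpMSC-like cells, 0.71 to 1.14 for *Pdgfra* in OB-like, -1.62 to -0.90 in SC-like and -6.46 to -2.52 in chondrocyte-like cells, and 1.65 to 1.97 for *Pdgfrb* in mural-like and 1.05 to 1.16 in SC-like cells. It gave -0.10 to 0.42 for *Pdgfra*, -0.59 to 1.10 for *Pdgfa* between late OB-like and OB-like cells, -0.56 to 0.75 for *Pdgfa* in mural-like against late OB-like cells and -0.80 to 0.14 in chondrocyte-like against mpMSC-like cells.

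Reversed differences were *Pdgfra* in late OB-like against OB-like cells (thinned -0.60, clusters -2.53 with adjusted p 0.00362, no filter -0.0366, without metaphyseal replicate 2 -0.10, at least 25 cells -0.0709), *Pdgfa* in mural-like against late OB-like cells (stricter gates 0.0692, library totals 0.62, without the Pdgfra-GFP+ library 0.75), *Pdgfa* in late OB-like against OB-like cells (-0.59 without the Pdgfra-GFP+ library), *Pdgfa* in SC-like against mpMSC-like cells (clusters -0.47, without the Pdgfra-GFP+ library -0.24), *Pdgfa* in chondrocytes (0.14 without metaphyseal replicate 1), *Pdgfc* in late OB-like against OB-like cells (clusters -0.95) and *Pdgfd* in OB-like against mpMSC-like cells (library totals -0.36).

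Genes called in all ranged from 2011 (thinned) to 7562 (library totals) around 4286 for OB-like, from 2182 (thinned) to 5801 (library totals) around 4564 for chondrocyte-like, from 268 (no block) to 1105 (clusters) around 803 for SC-like, from 915 to 1829 around 1797 for mural-like and from 2565 to 5519 around 4878 for capillary EC-like against mpMSC-like cells, from 527 to 1638 around 1232 for arterial against capillary EC-like cells, and from 22 to 1402 around 63 for late OB-like against OB-like cells. Without the block the pathway counts were 2 higher and 1 lower for SC-like, 3 and none for mural-like, 7 and 6 for OB-like against mpMSC-like cells, and 1 and 1 for arterial against capillary EC-like cells. Higher calls were 47.0% for OB-like cells but 9.44% on library totals, 46.5% and 23.4% for chondrocyte-like, 46.8% and 63.7% for SC-like, 43.9% and 63.7% for mural-like, and 44.6% and 54.7% for arterial against capillary EC-like cells.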

Other observations

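The genes most like *H2B_GFP* over the 20 populations of the Pdgfra-GFP+ library, listed after the data were seen, were *Fads3* (r 0.93), *Ilk*, the integrin-linked kinase (0.91), *Tmem132a* (0.87), *Pgf*, a VEGF family ligand (0.86), and *Pdlim2* (0.85), out of 10543 genes. *Hey1*, a Notch target and a marker of the arterial EC-like gate, was left out of that list with the other gating markers. Looked at after the values were seen, its level correlated with *H2B_GFP* at r 0.84 (rho 0.72), below all 5 listed genes, and that of *Heyl* at 0.65 (0.44). The *Hey1* level of arterial EC-like cells is set in part by their gate. *Hey1* stood at 245 CPM in arterial EC-like, 212 in mpMSC-like, 140 in SC-like and 112 in mural-like cells of that library, against 24.99 in dpMSC-like and 9.83 in OB-like cells. Over cells with 0, 1 to 4 and at least 5 *H2B_GFP* UMIs, mpMSC-like cells had 209, 212 and 230 CPM of *Hey1*. SC-like cells had 145, 123 and 140 CPM and arterial EC-like cells 221, 319 and 216. Mural-like cells had 84.2, 56.97 and 171 CPM. In dpMSC-like cells the values were 23.4, 26.1 and 82.8 CPM and in OB-like cells 8.54, 11.3 and 36.8. The highest classes of mural-like, dpMSC-like and OB-like cells rested on 26, 14 and 5 *Hey1* UMIs. The study's methods name Hey1-GFP mice for imaging and cell culture and not for this library, and the origin of the counted sequence was not tested. No test was possible in 1 library.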
